A study of Mus musculus with 32 samples.

Results

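The genes described here are 10 genes of tissue macrophages and of the complement system: Csf1r, Adgre1, Cd68, C1qa, C1qb, C1qc, C3ar1, Cx3cr1, Mrc1 and Cd163. They were taken by symbol from a list, with no measured value in the rule, and are 10 of the 49671 genes in the count table. The list was chosen with earlier results of these data known, so counts over it are descriptions. RNA was measured in the vomeronasal organ (VNO), the sensory organ in the nose that detects pheromones, of 32 mice. The VNO neuroepithelium of each mouse gave a library of its own. The inbred strains compared were C57/BL6 (B6), 129S6/SVEV (129), SJL/J (SJL) and SWR/J (SWR), with 4 males and 4 females of each, all aged 42 days and untreated as far as the labels say. The age, tissue and library preparation were shared by all groups, and reads of all strains were placed on the B6 reference genome.

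Macrophages are resident immune cells that take up dying cells, microbes and debris, and most tissues hold several kinds of them. Their survival depends on the receptor for colony-stimulating factor 1. The complement system is a set of proteins that mark targets for uptake. C1q, which starts the classical pathway, is assembled from chains A, B and C and is made mainly by macrophages in many tissues, and fragments of C3 act on receptors of myeloid cells. In an olfactory epithelium, where sensory neurons are replaced throughout life, such cells are known to clear dying neurons.

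All 10 genes passed FDR 0.05 (a false discovery rate, the adjusted p) in a test over the strains, as did 73.1% of all genes tested, and none was called between males and females, as for all but 0.0381% of genes. The strain 129 had the lowest mean for 8 of them and SWR was lowest for Cd163 and Cx3cr1. The largest difference was that of Cd163, a scavenger receptor for haemoglobin, which had a mean of 33.1 ± 9.48 normalized counts (SD, n = 8) in SJL and 4.45 ± 2.63 in SWR. B6 had the highest mean for Csf1r, Adgre1, Cd68 and the C1q genes, and SJL for Mrc1, Cd163, Cx3cr1 and C3ar1.

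Depth ranged from 5106398 to 18640871 reads on genes, with a median of 11461344.5. The labelled tissue showed its defining genes: all 7 genes listed for vomeronasal neurons had reads in every library, and Omp, a protein of mature olfactory sensory neurons, had strain means of 16606 to 19534 normalized counts. A pair of libraries stood apart from the rest, B6 female replicate 1 and 129 male replicate 1. On a principal component that held 6.99% of the variance they scored 63.3 and 50.1, while the next library scored 13.7. Their sums over the neutrophil list, almost all from Ltf, which glands also make, were the highest (54422 and 39389 normalized counts). Counts of members and of the gene lists were therefore repeated without both, and the main changes are given. Nothing in the labels says more than that each library came from 1 mouse, so p-values measure the spread between these mice.

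The members lie on 7 chromosomes of GRCm38 (positions from GENCODE M21), and all are protein coding. The C1q genes form a cluster on chromosome 4, all on the minus strand: C1qb at chr4:136880129-136886187, C1qc at chr4:136889804-136893065 and C1qa at chr4:136895917-136898803. Gaps of 3616 bases and 2851 bases part them. C3ar1 (chr6:122847138-122856161, minus strand) and Cd163 (chr6:124304656-124330527, plus strand) share chromosome 6, 1448494 bases apart. Mrc1 lies at chr2:14229392-14332057 on the plus strand, Cx3cr1 at chr9:119901616-120069879 on the minus strand, Cd68 at chr11:69664213-69666153 on the minus strand and Adgre1 at chr17:57358691-57483527 on the plus strand. Within the annotated span of Cx3cr1, Gorasp1, Csrnp1 and Xirp1 lie on the same strand, so that reads on exons they share are counted for neither gene.

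Upstream sequence is shown for the members that the results turn on and for which the promoter table has an entry: C1qb and C1qc from the C1q cluster, and the scavenger receptors Mrc1 and Cd163, whose LFCs were of unequal size in the pairs with SWR. Each is the 250 bases before the RefSeq start of the gene (GRCm38.p6), written 5′ to 3′ on the strand of the gene. Capitals mark GAGGAA, a sequence bound by PU.1, the transcription factor that specifies myeloid cells, or its reverse complement TTCCTC.
C1qb, chr4:136886201-136886450, minus strand: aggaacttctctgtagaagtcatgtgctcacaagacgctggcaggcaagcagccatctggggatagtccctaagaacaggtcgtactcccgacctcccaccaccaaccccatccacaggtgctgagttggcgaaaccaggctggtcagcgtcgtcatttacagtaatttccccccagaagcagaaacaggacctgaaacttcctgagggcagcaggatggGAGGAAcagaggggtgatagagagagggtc
C1qc, chr4:136892915-136893164, minus strand: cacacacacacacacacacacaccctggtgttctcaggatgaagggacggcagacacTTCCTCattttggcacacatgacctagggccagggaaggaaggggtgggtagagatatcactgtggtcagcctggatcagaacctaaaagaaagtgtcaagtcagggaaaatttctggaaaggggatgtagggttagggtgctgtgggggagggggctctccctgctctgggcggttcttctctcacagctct
Mrc1, chr2:14229164-14229413, plus strand: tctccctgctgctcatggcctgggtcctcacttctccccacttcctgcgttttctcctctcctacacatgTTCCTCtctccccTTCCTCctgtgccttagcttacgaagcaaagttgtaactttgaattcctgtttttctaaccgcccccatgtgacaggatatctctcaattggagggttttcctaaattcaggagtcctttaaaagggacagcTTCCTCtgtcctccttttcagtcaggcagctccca
Cd163, chr6:124304401-124304650, plus strand: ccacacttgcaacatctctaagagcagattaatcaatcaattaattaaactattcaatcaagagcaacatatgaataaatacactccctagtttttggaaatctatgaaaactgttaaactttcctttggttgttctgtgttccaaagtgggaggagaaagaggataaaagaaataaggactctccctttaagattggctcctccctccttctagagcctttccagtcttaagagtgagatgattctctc

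Promoter entries were found for 7 of the 10 members. GAGGAA on either strand occurred in 4 of these, in Mrc1 with 3 matches, and in C1qb, C1qc and Cd68 with 1 match each. In the same window of all 32536 promoters of different sequence, 23.4% had a match. No match was present upstream of Cd163, Cx3cr1 or C3ar1. The AP-1 motif TGANTCA occurred in 2 of the 7, against 6.73% of all promoters, counting a match on either strand, and by their letters the motifs cannot overlap. The start used by RefSeq differs from that of GENCODE for some members. The Cx3cr1 window (chr9:120068297-120068546) lies wholly inside the GENCODE gene, so the sequence before the GENCODE start was not searched. Part of the C1qc window lies inside the GENCODE gene, and the Mrc1 and C3ar1 windows reach just past the GENCODE start. A match is a run of letters and says nothing of whether a factor binds.

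TPM, a level per transcript that takes account of exon length and library size, ordered the members by level over all 32 mice. C1qa was highest with 32.4 ± 15.7 TPM (SD, n = 32), followed by C1qb with 24.0 ± 12.7, Cd68 with 21.2 ± 5.47 and C1qc with 15.2 ± 7.75. Csf1r with 8.90 ± 3.30 and Mrc1 with 7.34 ± 3.50 came next. Adgre1 (5.08 ± 2.32 TPM) and Cx3cr1 (3.84 ± 1.78 TPM) were lower, C3ar1 had 1.89 ± 1.11 TPM and Cd163 0.768 ± 0.523 TPM. These spreads include the strain differences, and neighbours in this order lie within their spreads of each other. Among genes with a read, 92.4% had a lower mean TPM than C1qa and 58.5% a lower one than Cd163.

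**Figure D1:**
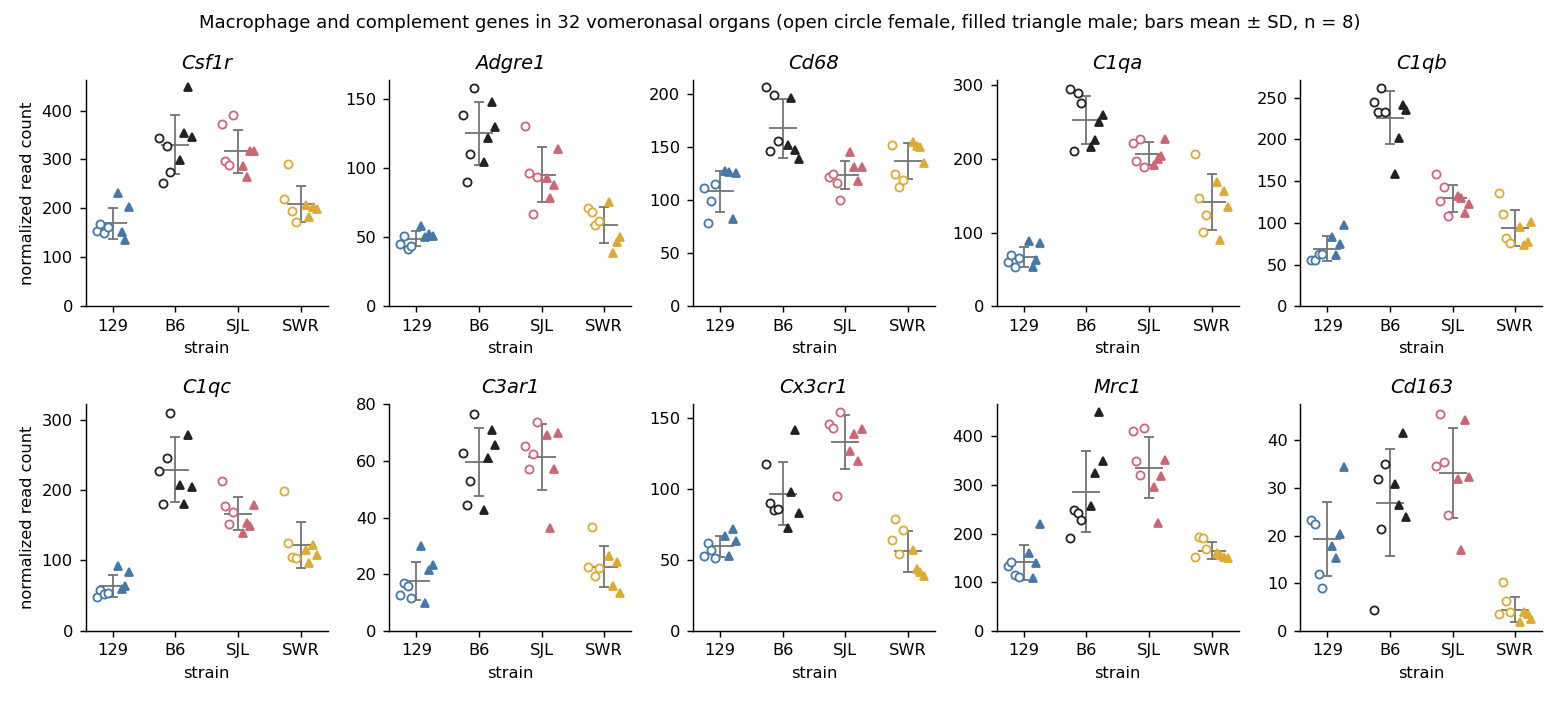
Normalized read count (y axis, from 0) of each gene in each mouse by strain (x axis), with open circles for females and filled triangles for males. Grey bars give the mean ± SD of 8 mice. The mean of 129 is lowest in 8 panels, though its points overlap with those of SWR in most of them, while the SWR points of Cd163 lie between 1.77 and 10.1, below every SJL point.

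The strains were compared in pairs in a single edgeR fit with sex as a term. A gene was called where the fold change was over 2 (LFC, the log2 fold change, over 1 in size) and the false discovery rate (FDR, the Benjamini-Hochberg adjusted p over 18382 genes) was under 0.05. By this rule 8 of the 10 members were called in at least 1 of 6 strain pairs, against 19.8% of all genes tested. All 10 members passed FDR 0.05 in an F test over the 4 strains, as did 73.1% of all genes, so that this count alone sets the members little apart. With both libraries that stand apart left out, 9 members were called and all 10 again passed the F test. The counts of members called in SJL against 129, in SJL against B6 and in SWR against B6 or SJL were the same without them. In tissue RNA, fewer cells of a type and less RNA per cell cannot be told apart.

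Higher in B6 than in 129 were 6 of the 10 members, C1qa, C1qb, C1qc, C3ar1, Adgre1 and Mrc1, against 8.72% of all genes called higher and 2.4% called lower. At FDR under 0.05 with any fold change, 9 members were higher, against 52.8% of all genes in either direction. The median LFC of the members was 1.19, and that of all genes 0.02. In SJL, 5 members were called higher than in 129 (C1qa, C1qc, C3ar1, Mrc1 and Cx3cr1), with 5.61% of all genes called higher, 2.76% lower, and 38.3% past FDR 0.05. The median LFC of the members was 1.06 in that pair. Without the libraries that stand apart, these counts were 7 and 5, with Csf1r added in B6 against 129 (LFC 1.04).

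Between SWR and 129, C1qa was called higher and Cd163 lower, against 4.62% of all genes called higher and 3.11% lower. At any fold change 6 members passed FDR 0.05, against 41.8% of all genes. The count of 2 was 1 without SWR female replicate 1 or without 129 female replicate 3, as C1qa then had an LFC of 0.94 or 0.996, just under the limit. It was 3 without the libraries that stand apart, with C1qc at 1.01. Between SJL and B6 no member was called by edgeR, nor by DESeq2, with 2.67% of all genes called higher in SJL and 5.33% lower. In that pair 6 members passed FDR 0.05 (45.7% of all genes), 5 of them lower in SJL and Cx3cr1 higher.

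SWR had 4 members called lower than B6 (Cd163, C1qb, C3ar1 and Adgre1) and all 10 lower at FDR under 0.05. Of all genes, 2.52% were called higher in SWR, 5.53% lower, and 40.9% passed FDR 0.05. SWR also had 4 members called lower than SJL (Cd163, Mrc1, Cx3cr1 and C3ar1) and 9 past FDR 0.05, all lower. The background there was 2.19% called higher, 2.31% lower and 32.5% past FDR 0.05. The median LFC of the members was -0.89 for SWR against B6 and -0.66 for SWR against SJL. Pairs with a strain in common share its 8 libraries, so the 6 comparisons are not independent of one another.

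**Figure D2:**
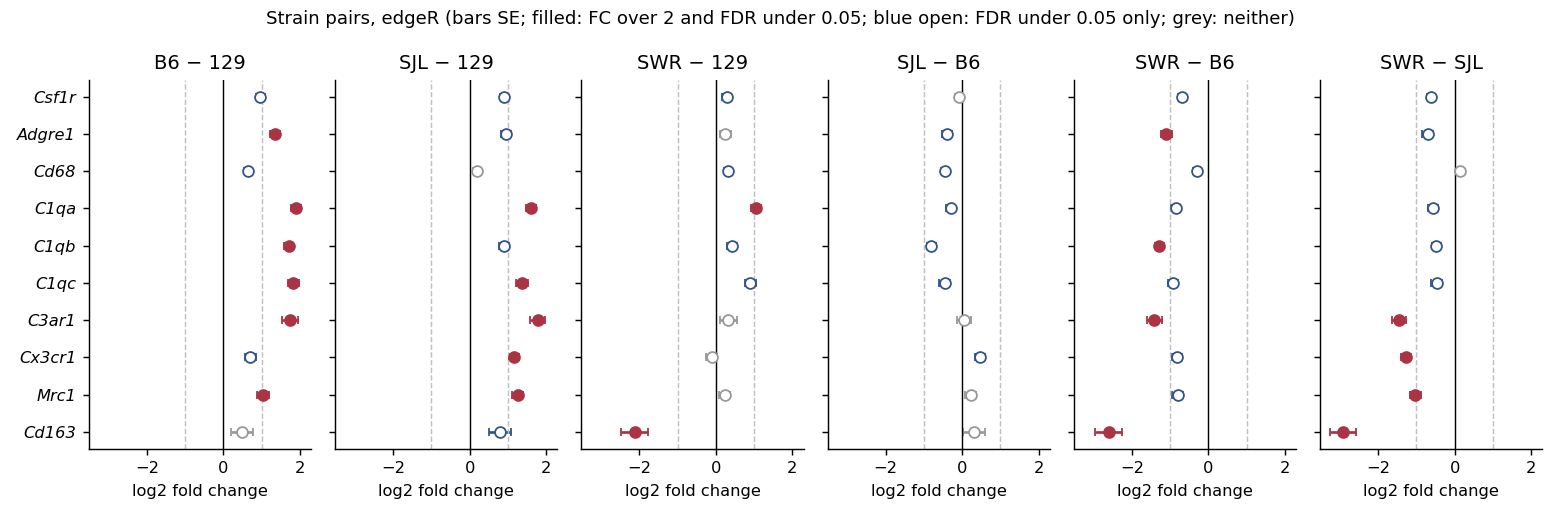
Log2 fold change (x axis) with its SE (bars) for each gene (y axis) in the 6 strain pairs of the edgeR fit. Filled red points passed a fold change over 2 and FDR 0.05, open blue points FDR 0.05 alone and grey points neither. Members lie right of 0 in B6 and SJL against 129 and, with Cd68 as the exception in one pair, left of 0 in SWR against B6 and SJL.

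Csf1r (chr18:61100598-61132149, plus strand) encodes the receptor on which macrophage survival depends. Hmgxb3 overlaps it on the other strand, which a stranded count keeps apart. In 129 its normalized counts ran from 136 over a median of 158 to 232, in SWR from 172 over 201 to 292, in SJL from 265 over 307 to 390 and in B6 from 253 over 336 to 447. The 129 mice did not overlap with the B6 or SJL mice, whereas SWR overlapped with all. Csf1r passed FDR 0.05 in 5 of 6 pairs but was called in none, the largest LFC being 0.97 ± 0.11 (SE, edgeR FDR 1.02e-08) for B6 against 129. Without 129 male replicate 1, B6 female replicate 2 or 129 male replicate 4, that LFC was 1.05, 1.02 or 1.01 and passed the limit. B6 and SJL differed by -0.07 ± 0.11 (FDR 0.607).

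Adgre1 encodes F4/80, a surface protein used to mark mouse macrophages. Its counts in 129 ranged from 41.2 to 58.0 with a median of 50.6, in SWR from 38.5 to 75.3 (median 60.5), in SJL from 66.7 to 131 (median 93.5) and in B6 from 90.2 to 158 (median 126). B6 did not overlap with 129 or SWR. It was called higher in B6 than in 129 (LFC 1.34 ± 0.14, FDR 6.16e-10) and lower in SWR than in B6 (LFC -1.10 ± 0.13, FDR 3.50e-08). Against 129, SJL had an LFC of 0.95 ± 0.14, which was 1.01 without SJL female replicate 3, and SWR 0.25 ± 0.14 (FDR 0.170).

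Cd68, a glycoprotein of lysosomes that is abundant in macrophages but not limited to them, varied least. Its strain means spanned a ratio of 1.55, from 108 ± 19.6 in 129 to 168 ± 28.0 in B6 (SD, n = 8), and no pair was called. In 129 the values ranged from 78.9 to 127, in SJL from 100.1 to 145, in SWR from 112 to 155 and in B6 from 138 to 207, so that only 129 and B6 did not overlap. B6 was higher than 129 (LFC 0.63 ± 0.10, FDR 5.03e-06). SJL against 129 gave 0.19 ± 0.10 (FDR 0.159) and SWR against SJL 0.14 ± 0.10 (FDR 0.323).

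C1qa encodes the A chain of C1q. Its normalized counts ran from 53.2 over a median of 64.1 to 88.9 in 129, from 89.5 over 141 to 207 in SWR, from 190 over 202 to 227 in SJL and from 211 over 254 to 295 in B6. All 8 mice of 129 were below every mouse of the other strains, though the lowest SWR mouse (89.5) was only just above the highest 129 mouse (88.9). C1qa was higher than in 129 by an LFC of 1.90 ± 0.13 in B6 (FDR 3.39e-14), 1.61 ± 0.13 in SJL (FDR 2.88e-12) and 1.04 ± 0.13 in SWR (FDR 7.81e-08). Between SJL and B6 the LFC was -0.29 ± 0.12 (FDR 0.0426).

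C1qb and C1qc encode the other chains. C1qb ranged from 55.4 to 97.4 in 129 (median 62.8), from 73.0 to 136 in SWR (median 88.5), from 109 to 159 in SJL (median 128) and from 158 to 261 in B6 (median 234). C1qc ranged from 47.7 to 92.7 in 129 (median 58.8), from 95.7 to 199 in SWR (median 111), from 139 to 214 in SJL (median 161) and from 180 to 309 in B6 (median 217). The lowest B6 mouse for C1qb, a male with 158.4, lay just under the highest SJL mouse, with 159.0. For B6 against 129 the LFC was 1.70 ± 0.13 (FDR 2.00e-13) for C1qb and 1.83 ± 0.15 (FDR 1.49e-12) for C1qc. For SJL against 129 it was 1.37 ± 0.15 for C1qc, which was called, and 0.90 ± 0.13 for C1qb, which was not. SWR was called lower than B6 for C1qb alone (LFC -1.29 ± 0.12, FDR 9.52e-11). C1qc stood at -0.93 ± 0.14 in that pair, and at -1.06 without SWR female replicate 1.

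Within a library, the reads of C1qb over those of C1qa had higher means in 129 and B6 than in SWR and SJL. The ratio had a mean of 1.03 ± 0.148 in 129 and 0.897 ± 0.109 in B6, but 0.682 ± 0.118 in SWR and 0.624 ± 0.0635 in SJL (SD, n = 8). The lowest mouse had 0.733 in B6 and 0.788 in 129, and the highest SJL mouse 0.717, so that SJL did not overlap with either. The highest SWR mouse had 0.816, so that SWR overlapped with both. C1qc over C1qa differed less, with means of 0.947 in 129, 0.907 in B6, 0.876 in SWR and 0.804 in SJL and ranges that overlapped in every pair. These ratios were chosen after their values were seen and were not tested. Reads of all strains were placed on the B6 reference genome, and the part of sequence differences in these ratios was not tested.

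C3ar1 encodes the receptor for C3a, a fragment released when C3 is cleaved. Its counts ran from 9.83 to 29.9 in 129 (median 16.4), from 13.5 to 36.8 in SWR (median 22.4), from 36.3 to 73.8 in SJL (median 64.0) and from 42.9 to 76.8 in B6 (median 61.9). It was called in 4 pairs, more than any other member, and split the strains into SJL and B6 above SWR and 129. B6 against 129 gave an LFC of 1.74 ± 0.20 (FDR 8.18e-09), SJL against 129 1.78 ± 0.20 (FDR 5.35e-09), SWR against B6 -1.41 ± 0.19 (FDR 3.37e-07) and SWR against SJL -1.45 ± 0.19 (FDR 2.37e-07). Neither side differed within itself past FDR 0.05, with LFCs of 0.04 ± 0.18 for SJL against B6 (FDR 0.878) and 0.33 ± 0.21 for SWR against 129 (FDR 0.228).

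Cx3cr1 encodes the receptor for the membrane-bound chemokine fractalkine. In SWR its counts ranged from 38.9 to 78.6 (median 55.3), in 129 from 51.1 to 71.5 (median 59.4), in B6 from 72.7 to 141 (median 87.9) and in SJL from 95.1 to 154 (median 140.1). SJL did not overlap with 129 or SWR. It was the member for which SJL exceeded B6 past FDR 0.05 (LFC 0.46 ± 0.13, FDR 0.00484). Called pairs were SJL against 129 (LFC 1.16 ± 0.14, FDR 1.24e-08) and SWR against SJL (LFC -1.27 ± 0.14, FDR 2.67e-09). Set against Adgre1 in the same library, the reads of Cx3cr1 had a mean ratio of 1.42 ± 0.209 in SJL, 1.21 ± 0.114 in 129, 0.956 ± 0.163 in SWR and 0.781 ± 0.154 in B6, a description chosen after the values were seen.

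Mrc1 encodes CD206, the mannose receptor of macrophages, which sinusoidal endothelium also makes. Its counts ranged from 108 to 219 in 129 (median 136), from 150 to 193 in SWR (median 158), from 191 to 449 in B6 (median 252) and from 221 to 418 in SJL (median 335). SJL did not overlap with 129 or SWR. SJL was called above 129 (LFC 1.26 ± 0.15, FDR 1.24e-08) and SWR below SJL (LFC -1.03 ± 0.14, FDR 6.00e-07). B6 against 129 gave 1.03 ± 0.15 (FDR 5.42e-07), just past the limit. That call was lost, with LFCs of 0.92 to 0.998, when any one of 5 libraries was left out: 129 male replicate 2 (0.98), B6 male replicate 3 (0.92), B6 male replicate 4 (0.99), 129 female replicate 3 (0.998) and 129 female replicate 4 (0.99). The call of SWR against SJL was lost without SJL female replicate 1 (-0.98) or SJL female replicate 4 (-0.97).

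Cd163 encodes the scavenger receptor for complexes of haemoglobin and haptoglobin, typical of perivascular macrophages. It had the fewest reads of all members. SWR mice had 2 to 8 reads each and normalized counts of 1.77 to 10.1 (median 3.73), while 129 had 9.06 to 34.3 (median 19.0), B6 4.26 to 41.6 (median 28.6) and SJL 16.9 to 45.4 (median 33.4). SWR and SJL did not overlap. SWR overlapped with B6 through B6 female replicate 1, one of the libraries that stand apart, which had 4.26 normalized counts from 4 reads, against 21.3 to 35.1 in the other B6 females. Cd163 was called lower in SWR than in SJL (LFC -2.91 ± 0.34, FDR 1.83e-08), B6 (LFC -2.60 ± 0.35, FDR 2.07e-07) and 129 (LFC -2.12 ± 0.36, FDR 9.78e-06). Without the libraries that stand apart these were -2.91, -2.78 and -2.14. At 2 to 8 reads the level in SWR itself is imprecise.

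Cd163 was thus the member for which 129, lowest for most others, exceeded another strain by call. The reads of Cd163 over those of Mrc1 in the same library had a mean of 0.134 ± 0.0319 in 129, 0.0996 ± 0.0273 in SJL, 0.0944 ± 0.0404 in B6 and 0.0260 ± 0.0124 in SWR (SD, n = 8). All SWR mice lay between 0.0110 and 0.0526, below every mouse of 129 and SJL. Over Csf1r the mean was 0.0207 ± 0.00896 in SWR and 0.0839 to 0.115 in the other strains.

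**Figure D3:**
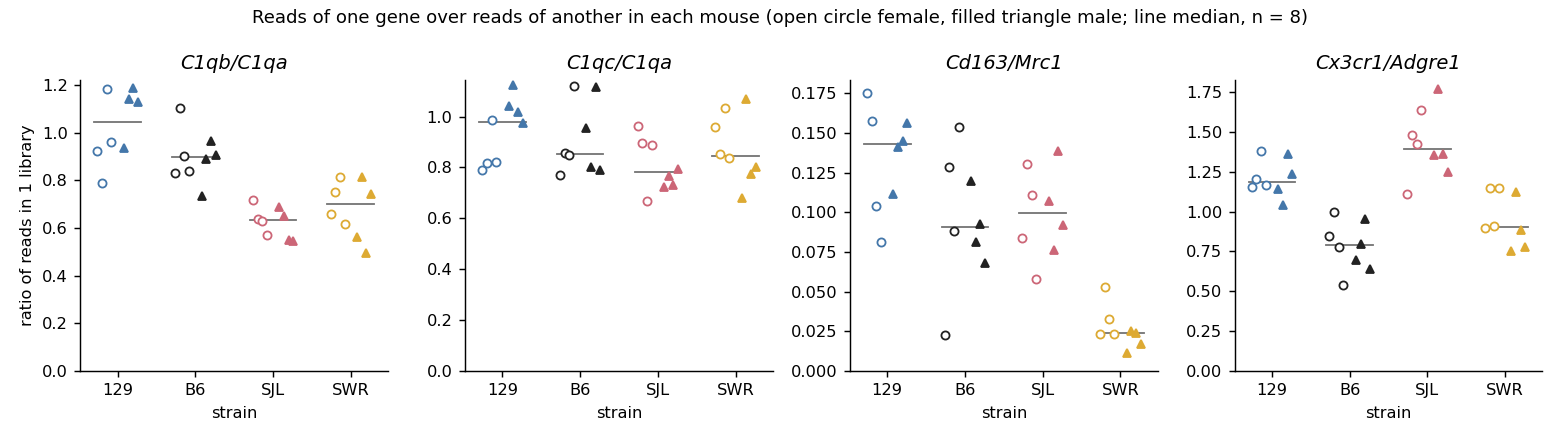
Reads of one gene over reads of another in the same library (y axis, from 0) for each mouse by strain (x axis), with open circles for females, filled triangles for males and a line at the median of 8 mice. C1qb over C1qa does not overlap between B6 and SJL, and Cd163 over Mrc1 lies between 0.0110 and 0.0526 in SWR.

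Other genes of macrophages moved with the members in B6 and SJL against 129, but less closely in the pairs with SWR. A list of 21 further macrophage genes had 16 called higher in B6 than in 129, with 11 for SJL and 6 for SWR, and none lower. Without the libraries that stand apart these counts were 16, 11 and 10. Of all genes, 8.72%, 5.61% and 4.62% were called higher in B6, SJL and SWR than in 129. The median LFC of the list was 1.26, 1.001 and 0.87 in these pairs, beside medians of all genes between -0.01 and 0.02. The members had medians of 1.19, 1.06 and 0.30, and in SWR against 129 only 1 member was called higher and 1 lower. Aif1 (the actin-binding protein IBA1), Ctss (cathepsin S), Lyz2 (lysozyme), Ms4a7 and Ms4a6c were called lower in 129 than in each of the other strains. Between SWR and SJL, 0 of the 21 were called by edgeR and the median LFC was -0.01, although the same pair had 4 members called. In SWR against B6, 1 of the 21 was called lower and 0 higher, against 5.53% and 2.52% of all genes. Without the libraries that stand apart, 2 were called lower. The list had a median LFC of -0.48 there, beside -0.89 for the members, of which 4 were called lower.

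By the smallest FDR, the leading macrophage genes in B6 against 129 were Ctss (LFC 1.55 ± 0.11, FDR 3.67e-14), Fcgr3, a receptor for immunoglobulin G (1.86 ± 0.15, FDR 2.38e-12), and Lyz2 (1.56 ± 0.13, FDR 6.89e-12). In SJL against 129 they were Lyz2 (1.46 ± 0.13), Ctss (1.001 ± 0.11) and Aif1 (1.5 ± 0.17), with FDR of 1.02e-08 or less. For SWR against 129, Aif1 (1.85 ± 0.17), Ctss (1.04 ± 0.11) and Mpeg1, which encodes perforin-2 (1.33 ± 0.14), led with FDR of 2.17e-09 or less. In SJL against B6, Cd14, a receptor for bacterial lipopolysaccharide, was lower (-1.49 ± 0.17, FDR 7.45e-09) and Cd209f, a C-type lectin, higher (2.09 ± 0.38, FDR 3.17e-05).

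A second list held 13 genes of perivascular and scavenging macrophages, of which 10 had enough reads to test. Of all genes, 2.31% were called lower in SWR than in SJL and 2.19% higher. In this list SWR had 5 called lower than SJL and none higher, with a median LFC of -0.92. Without the libraries that stand apart there were again 5. These were F13a1, coagulation factor XIII A (-1.67 ± 0.16, FDR 2.27e-10), Stab1, a scavenger receptor also of sinusoidal endothelium (-1.24 ± 0.15, FDR 5.38e-08), Siglec1, a sialic acid receptor (-1.08 ± 0.17, FDR 5.04e-06), Cd209f (-1.70 ± 0.35, FDR 2.73e-04) and Folr2, a folate receptor (-1.65 ± 0.46, FDR 0.00522). SWR was lower than B6 for F13a1 (-1.07 ± 0.16, FDR 2.12e-06) and Folr2 (-1.56 ± 0.48, FDR 0.00838), and for Fcgr3 of the first list (-1.07 ± 0.14, FDR 1.58e-07). Against 129, this list had 3 genes called higher for B6, 6 for SJL, and for SWR Cd209f alone, or 3, 7 and 3 without the libraries that stand apart. Mrc1 and Stab1 are also genes of sinusoidal endothelium, and a list of 4 lymphatic and sinusoidal endothelial genes (Prox1, Flt4, Stab2 and Reln) had all 4 LFCs under 0 for SWR against SJL, with a median of -0.58 and Prox1 called lower (-1.003 ± 0.34, FDR 0.0215). For SJL against 129 all 4 were above 0, with a median of 1.10. Prox1 (1.56 ± 0.36) and Stab2 (1.26 ± 0.28) were called there, where 5.61% of all genes were called higher. The sum of this list ran from 209 to 537 normalized counts in SJL, 200.2 to 373 in SWR, 194 to 338 in B6 and 120 to 299 in 129, and its part in the differences of Mrc1 was not tested. A list of 6 general endothelial genes had a median LFC of -0.48 for SWR against SJL, with 1 of 6 above 0. For SJL against 129 its median was 0.42, with 6 of 6 above 0. It had 0 genes called in any pair, or 2 without the libraries that stand apart. Folr2 and Cd209f had strain means under 16 normalized counts. Cbr2 had 8279 to 14115 normalized counts in the strain means, far above the other genes of the perivascular list. It is also made by epithelial cells of the airway.

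**Figure D4:**
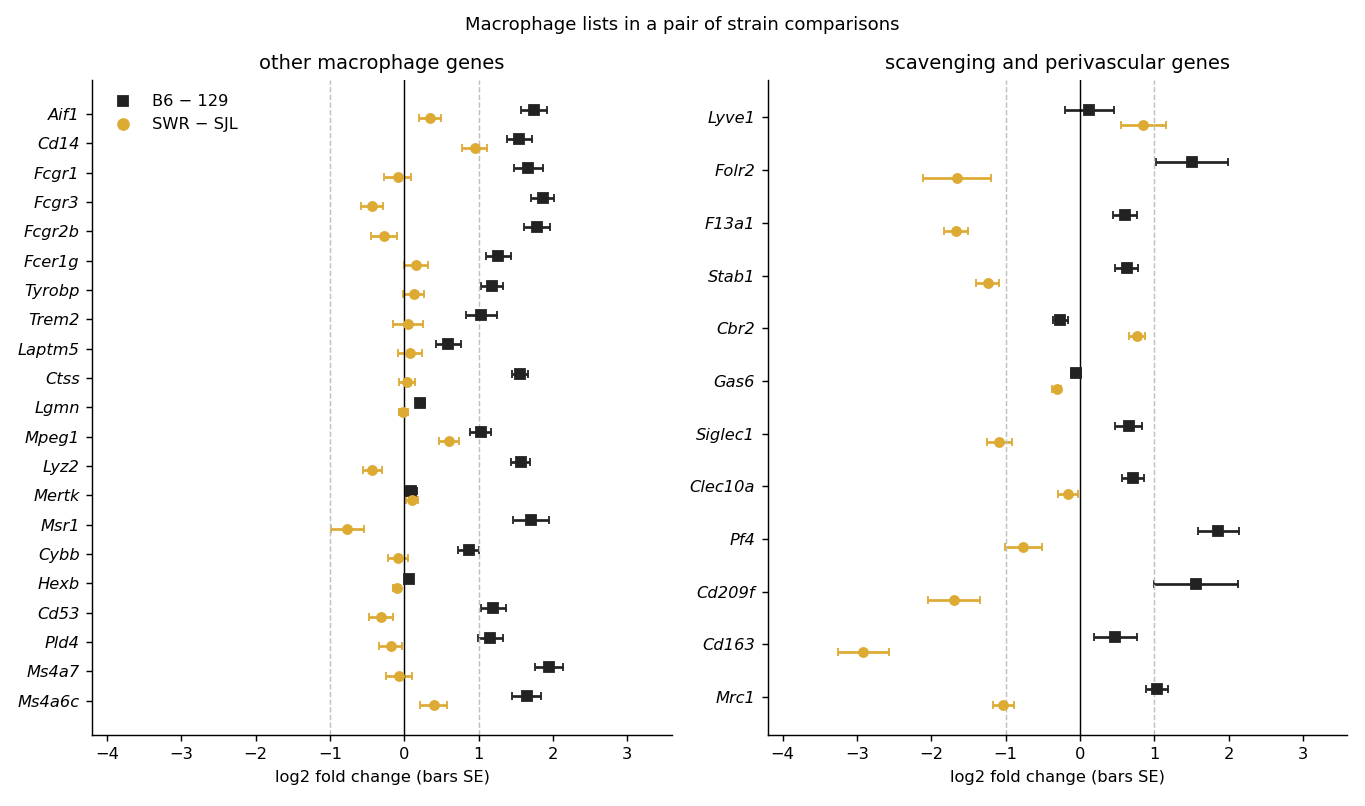
Log2 fold change with its SE (x axis) for B6 against 129 (black squares) and SWR against SJL (yellow circles), for 21 further macrophage genes (left) and for 10 scavenging and perivascular genes with Cd163 and Mrc1 below them (right). On the left 16 genes passed the call for B6 against 129 and none for SWR against SJL. On the right 5 genes of the list, and both members, were called lower in SWR than in SJL.

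Of 47 other complement genes listed, 29 could be tested and 15 were called in at least 1 pair, again against 19.8% of all genes, and 18 without the libraries that stand apart. Most had LFCs above 0 against 129, 25 of 29 for B6 (median 0.73), 25 for SJL (median 0.57) and 24 for SWR (median 0.35), beside medians of all genes from -0.01 to 0.02. Called higher than in 129 were 4 in B6, 8 in SJL and 6 in SWR, and 1 was called lower in each pair. Of all genes, 8.72%, 5.61% and 4.62% were called higher in these pairs and 2.4%, 2.76% and 3.11% lower. Without the libraries that stand apart, 9 were called higher in B6 than in 129 and 1 lower. Against 129 there were then 10 higher and 0 lower in SJL, and 6 higher and 0 lower in SWR, as Cfi lost both calls. Against B6 or SJL, SWR had 10 and 11 of 29 LFCs above 0. C1s2, a copy of the C1s protease gene, differed in all 6 pairs and was highest in SJL with 38.4 ± 15.2 normalized counts, against 1.52 ± 1.89 in 129. C4a was higher in SJL (122 ± 16.6) than in the other strains (strain means 27.9 to 31.0), with LFCs of 2.13 ± 0.16 against 129 (FDR 4.74e-13) and 2.02 ± 0.16 against B6 (FDR 2.02e-12), and of -2.13 ± 0.16 for SWR against SJL (FDR 6.51e-13). C1s1 was lower in SWR than in SJL (-1.01 ± 0.13) and C1rl higher (1.09 ± 0.19). C4a and C4b, and C1s1 and C1s2, are near-identical copies, and how uniquely placed reads split between them is uncertain.

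Among regulators, Cd59a, which shields cells from the membrane attack complex, was higher than in 129 by an LFC of 1.72 ± 0.10 in SWR (FDR 1.93e-16) and 1.28 ± 0.10 in SJL (FDR 8.77e-13). C3, the central component, was highest in SWR (599 ± 294 normalized counts) and lowest in B6 (147 ± 118, or 107 ± 34.8 with n = 7 without B6 female replicate 1, which had 427), with an LFC of 2.01 ± 0.38 between them (FDR 5.97e-05) and of 1.64 ± 0.38 for SJL against B6 (FDR 6.54e-04). Mbl2, mannose-binding lectin, was higher in SWR than in B6 (1.06 ± 0.13) and SJL (1.06 ± 0.13). Masp2, a protease of the lectin pathway, was lower in B6 than in 129 (-1.54 ± 0.34) and lower than in SJL and SWR (2.11 ± 0.32 and 1.56 ± 0.33 against B6). Cfi, which inactivates C3b, was lower in SJL than in B6 (-2.40 ± 0.54, FDR 4.18e-04).

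Called in B6 against 129 were also Colec10, a collectin (2.37 ± 0.38, FDR 3.23e-06), Itgax, the CD11c chain of a complement receptor (1.33 ± 0.25, FDR 3.98e-05), C1s2 (1.65 ± 0.50) and Cr2, the complement receptor of B cells (2.77 ± 0.85, FDR 0.00658). Cr2 had strain means of 0.732 to 5.61 normalized counts. C1s2 was also higher in SWR than in 129 (2.67 ± 0.44), in SJL than in 129 (4.48 ± 0.39) and in SJL than in B6 (2.83 ± 0.33), and lower in SWR than in SJL (-1.81 ± 0.29). Itgax was higher in SWR than in 129 (1.04 ± 0.25). Reads on gene families of other tissues, a measure of background, had medians of 1.40 RPM (reads scaled to library size) in 129, 6.53 in SWR, 6.85 in SJL and 9.65 in B6, and their part in the calls of such low genes was not tested. With this background as a covariate, 8 members were called in at least 1 pair, as without it, although Mrc1 in B6 against 129 (0.90) and Cx3cr1 in SJL against 129 (0.985) lost their calls.

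The ligands of the member receptors followed the order of their receptors only in part. Csf1 had strain means of 76.7 to 114 normalized counts and Il34, the other ligand of the CSF1 receptor, 31.0 to 46.6, and neither was called in any pair. At any fold change, Csf1 was higher in B6 than in 129 (LFC 0.46, FDR 0.00749) while Il34 was lower (-0.43, FDR 0.00886). Cx3cl1, which encodes fractalkine, was not called either (strain means 118 to 161). C3, the source of the ligand of C3ar1, was lowest in B6, a strain with high C3ar1, and highest in SWR, a strain with low C3ar1. In SJL both were high, with C3 at 457 ± 218 normalized counts. In 129 both were low, with C3 at 194 ± 94.2 (n = 7) without 129 male replicate 1. Hp, haptoglobin, had 341 normalized counts in 129 male replicate 1, one of the libraries that stand apart, and 13.1 to 89.3 in the other 129 mice. Its call lower in SWR than in 129 (LFC -1.70, FDR 0.0222) was lost without the libraries that stand apart (-0.74 ± 0.36, FDR 0.0948). Of 8 myeloid transcription factors, only 1 was called in at least 1 pair, against 19.8% of all genes tested. It was Spi1, which encodes PU.1, higher in B6 than in 129 (1.05, FDR 3.50e-04), where 8.72% of all genes were called higher.

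Marker genes of other cells also differed among strains. Of 7 osteoclast genes 4 could be tested, and their sum ran from 210 to 466 normalized counts in 129, 518 to 1291 in B6, 355 to 596 in SJL and 530 to 1103 in SWR. Of the 4 tested, 3 were called higher in B6 than in 129 and 2 in SWR than in 129, with Acp5 and Mmp9 in both pairs. Of all genes, 8.72% and 4.62% were called higher there. In SJL, 3 were called lower than in B6 (5.33% of all genes), where 0 members were called. In SWR, 3 were called higher than in SJL (2.19% of all genes), where 4 members were called lower. Calcr, Ocstamp and Dcstamp had strain means under 6. Osteoclasts share Csf1r with macrophages. The 5 fibroblast genes summed to 5929 to 14723 in 129, 9396 to 20670 in B6, 12959 to 24572 in SJL and 13427 to 21376 in SWR. Vomeronasal neuron genes summed to 31354 to 37179 in 129, 25665 to 30998 in B6, 29776 to 36202 in SJL and 29590 to 39868 in SWR. With the osteoclast, fibroblast or neuron sum as a covariate, 8, 7 and 8 members were called in at least 1 pair. Mrc1 in B6 against 129 was then 0.54, 0.74 and 0.63 and no longer called. C1qa in SWR against 129 lost its call with the osteoclast sum (0.90) and the fibroblast sum (0.96). For SJL against 129 the fibroblast sum left 3 of 5 calls, and for SWR against B6 the neuron sum left 2 of 4. Csf1r and Mrc1 in SWR against 129 turned below 0 with the osteoclast sum (-0.11 and -0.13) and the fibroblast sum (-0.04 and -0.08). The osteoclast sums of 129 did not overlap with those of B6 or SWR, nor the neuron sums of 129 with those of B6. Such a covariate overlaps with the strain term, so these fits cannot tell the share of each apart. The SE of Mrc1 in B6 against 129 was 0.22 with the osteoclast sum, against 0.15.

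Few lymphoid markers had enough reads to test. Of the T cell list 2 of 7 genes could be tested, of the B cell list 3 of 6 and of the NK cell list 1 of 5, while 4 of 10 neutrophil genes could be tested (S100a8, S100a9, Ltf and Csf3r). The sum of the neutrophil list was 2249 to 54422 normalized counts over all mice. Mpo and Elane, which mark granule-forming neutrophils, had no read in 129 and strain means of at most 3.55 elsewhere. The T cell list summed to 16.3 to 33.8 normalized counts in 129 and to 32.1 to 90.0 over the other strains, B cell genes to at most 54.1 and NK cell genes to at most 45.8 in any mouse. Mast cell genes summed to 55.4 to 342 normalized counts. Of 5 tested, 4 were called higher in SJL and in SWR than in 129 and than in B6. This order differed from that of the members. Of all genes, 5.61% and 4.62% were called higher in SJL and SWR than in 129, and 2.67% and 2.52% than in B6. Of 6 microglia genes, P2ry12, Gpr34 and P2ry13 were called lower in SWR than in SJL, as Cx3cr1 was, against 2.31% of all genes. In the same list 1 gene was called lower in B6 than in 129 (2.4% of all genes) and 1 lower in SWR than in 129 (3.11%). In SWR against B6, 1 was lower (5.53%), and in SJL against 129, 1 was higher (5.61%). The part of these cells in the member differences was not tested.

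No member passed a test between the sexes. Over all strains, 0 of 10 were called at a fold change over 2 and FDR under 0.01, against 0.0381% of all genes, and 0 passed FDR 0.05 at any fold change, against 0.283%. edgeR gave 0 members with an unadjusted p under 0.05, and DESeq2 called 0. The LFC of males against females lay between -0.08 for Cx3cr1 and 0.10 for Cd68, with SEs of 0.07 to 0.22, and the smallest FDR was 0.729.

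Inside a strain, with 4 males and 4 females, again 0 members were called by edgeR or by DESeq2, beside 0.0816% of all genes in SWR, 0.0544% in SJL, 0.0544% in B6 and 0.0381% in 129. At an unadjusted p under 0.05 there were 2 members in 129 (C1qb and C1qc, higher in males) and 1 in each other strain (Mrc1 in B6 and SJL, Cx3cr1 in SWR). An interaction of sex and strain passed FDR 0.05 for 0 members in edgeR (0.0163% of all genes), with 4 members at an unadjusted p under 0.05. Mrc1 had the smallest p there (5.32e-04, FDR 0.197). In B6 its counts were 191, 228, 241 and 248 in females and 256, 324, 350 and 449 in males, which do not overlap, while in SJL the females had 321 to 418 and the males 221 to 352. The male-against-female LFC was 0.60 ± 0.16 in B6 (FDR 0.221) and -0.34 ± 0.15 in SJL (FDR 0.693). This interaction passed with DESeq2 (FDR 0.0424) and without the filter on low counts (FDR 2.16e-04), so its call rests on the choice of test and of filter.

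Between mice of the same strain and sex, the members tended to vary together. Levels as log2(normalized count + 1) were centred on their group of strain and sex, and 45 pairs of members were correlated over 32 mice. Pearson's r had a median of 0.315 and ran from -0.337 to 0.749. It was above 0 in 37 pairs, and 16 pairs had an adjusted permutation p under 0.05, all with r above 0. For Spearman's rho the count was 17. All levels of a mouse share its library and its size factor. No such count was made for pairs of other genes, so whether this is particular to the members was not tested. The count of 16 depended on the mice included: without all libraries of replicate number 1, 2, 3 or 4 it was 4, 0, 8 or 11, with median r of 0.403, 0.333, 0.338 and 0.447. Without the libraries that stand apart it was 14.

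By r, the closest pairs were those of C1qa with each of the other C1q chains. C1qb and C1qc had r of 0.591 and rho of 0.494 (adjusted permutation p 0.0271 and 0.0457). C1qc and Adgre1 had r of 0.601 and rho of 0.563 (adjusted permutation p 0.00202 and 0.0160). C1qa and C1qc had r of 0.749 and rho of 0.706 (permutation p 7.00e-05 and 2.70e-04, adjusted 0.00202 and 0.0121), with r of 0.698 without the 2 mice farthest from the median of C1qa. Within the 8 mice of each replicate number, r ran from 0.589 to 0.834. C1qa and C1qb had r of 0.683 and rho of 0.605 (permutation p 6.80e-04 and 0.00340, adjusted 0.00612 and 0.0175), with 0.598 without 2 mice and 0.447 to 0.856 within numbers. Cd163 went with Mrc1 (r 0.558, rho 0.581, permutation p 6.50e-04 and 0.00178, adjusted 0.00612 and 0.0160, r 0.590 without 2 mice and 0.422 to 0.899 within numbers). With the other 8 members, Cd163 had r between -0.337 and 0.199, and no adjusted permutation p under 0.05. Cd68 likewise had no pair past that limit.

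**Figure D5:**
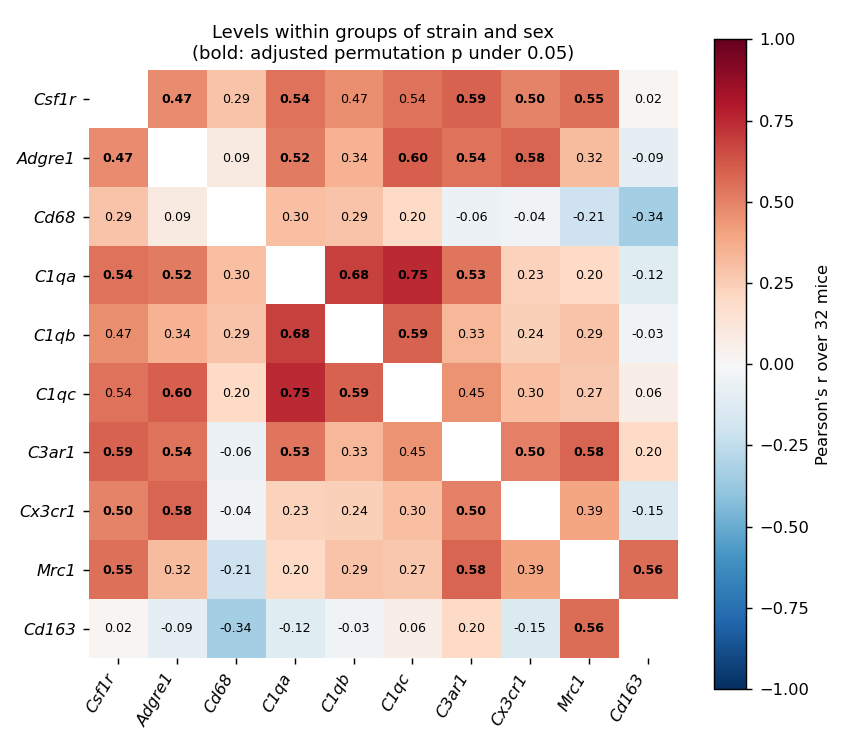
Pearson's r over 32 mice (colour, -1 to 1, and printed in each cell) between the levels of each pair of genes after centring on the group of strain and sex. Bold values have an adjusted permutation p under 0.05. The C1q genes correlate among themselves at 0.59 to 0.75, while Cd163 exceeds 0.2 with Mrc1 alone.

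The 2 genes outside the list whose level was most like that of each member, by Pearson's r of log2 normalized counts over 32 libraries among 18372 genes, included the strain differences and carry no p. For Csf1r these were Fbln5 (0.940) and Nid1 (0.923), and for Mrc1 Fbln5 (0.943) and Adamtsl3 (0.927), where Fbln5 and Nid1 encode proteins of the extracellular matrix and basement membrane. C1qa was nearest to Lyz2 (0.940) and Ctss (0.920), and C1qc to Lyz2 (0.936) and Fcgr3 (0.922). C1qb was nearest to Gm4951 (0.936) and Irgm2 (0.911), and Adgre1 to Gm4951 (0.928) and E330012B07Rik (0.910). C3ar1 had F830016B08Rik (0.910) and Gm16201 (0.896). Cx3cr1 had Gm36266 (0.872) and Gpr34 (0.864), Cd68 had Alox5ap (0.828) and Ccdc71 (0.823), and Cd163 had Sox13 (0.899) and H2-Eb1 (0.846). After centring on groups, r was 0.826 for Mrc1 with Adamtsl3 and 0.781 for Csf1r with Nid1. Both exceeded the highest r between members, 0.749. For the other genes it ran from 0.117 for Cd163 with H2-Eb1 to 0.686 for Csf1r with Fbln5.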

How the data were processed

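RNA of the VNO neuroepithelium of 32 single mice was sequenced, 4 of each strain and sex, and all libraries were used. The authors made ribodepleted, stranded total RNA libraries, read 125 bp pairs, trimmed them with Trim Galore and placed them with STAR 2.5.2b on the B6 genome (GRCm38, mm10) with Ensembl 87 genes. The deposited counts are the uniquely placed read pairs per gene on the reverse strand, whole numbers that were not normalized. A second deposited table holds a normalized signal, which the authors obtained by dividing counts by DESeq2 size factors, and levels per mouse are given in this unit. Variants that differ from B6 can lower placement, and genes with near-identical copies lose reads.

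Counts were tested with edgeR 4.0.16 (R 4.3.3, limma 3.58.1), quasi-likelihood, TMM normalization, filterByExpr over the 8 groups (18382 of 49671 genes kept), with terms for strain and sex or with 8 group means for sex within a strain and the interaction. Adjusted p-values are Benjamini-Hochberg over all genes tested. DESeq2 1.42.0 was an alternative, beside its size factors, no filter, a replicate block, the library background as covariate, each pair fitted alone, glmTreat against a fold change of 1.5, and each library left out. The osteoclast, fibroblast and neuron sums as covariates, and the correlations and list counts without the libraries that stand apart, were chosen after the data were seen. Correlations used a pseudocount of 1 and 100000 shuffles within groups, with a test of both sides. TPM used the exon lengths of GENCODE M21, in which 49412 genes were found by identifier. Scripts were tested on simulated data.

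The members and all gene lists were chosen with earlier results of these data known, and the counts over them are descriptions. Named genes are the 10 members, the called complement and macrophage genes of each strain pair (the 3 of smallest FDR where over 6 were called) and the 2 genes most like each member. Other list genes that are named (ligands, Spi1, Ms4a7, Ms4a6c, Cbr2, endothelial genes and markers of other cells) fall outside this rule and were chosen after their values were seen. Replicate numbers are those in the library descriptions. They may be sequencing lanes, which no source used here states. Depth sets precision: Cd163 had 2 to 8 reads in SWR. Promoters are those of the RefSeq table for GRCm38.p6. The 129 mice are named 129S6/SVEV in the labels and 129Sv/J in the methods of the study, and the substrain was not settled here.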

Additional observations from a re-analysis of the deposited data

Results flagged for a closer look

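In 80 groups of 4 mice, 10 genes in each of 8 groups of strain and sex, 2 groups had a mouse whose gap to the nearest other exceeded Dixon's 95% critical value, and chance alone gives about 1 in 20 groups. Cx3cr1 in B6 female replicate 1, one of the libraries that stand apart, was 117 normalized counts, above 85.3 to 90.2 in the other B6 females. Cd68 in 129 male replicate 3 was 82.2, below 125.1 to 127.3 in the other 129 males.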

How the results depend on the processing

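Of 855 values and counts recomputed with all replicates kept or with both libraries that stand apart left out, 824 were classed as unchanged. This class could include a small turn of sign. Cd163 in males against females went from 0.082 to -0.0064 without both libraries that stand apart, and was classed as unchanged. The count of members called in at least 1 strain pair was 7 to 9 under all these alternatives, against 8. The count with an interaction of sex and strain was 1 with DESeq2 and 1 with no filter, against 0. Members called in SJL against 129 were 8 by glmTreat, which has a lower fold limit, and 3 with the fibroblast sum, against 5. In SWR against 129 they were 1 with the osteoclast sum and 1 with the fibroblast sum, against 2, and in SWR against B6 2 with the neuron sum, against 4. Listed next are only the values classed as reversed, so smaller turns of sign can be missing. With the osteoclast sum they were Csf1r (-0.11) and Mrc1 (-0.13) for SWR against 129 and Csf1r (0.24) for SJL against B6. With the fibroblast sum they were Csf1r (-0.041) and Mrc1 (-0.081) for SWR against 129. For males against females that sum turned Csf1r (-0.083) and Mrc1 (-0.027). With the neuron sum the reversed values were Cd163 in B6 against 129 (-0.089) and Csf1r in SJL against B6 (0.12). The cause was not tested, and these sums themselves differed between strains. Among the lists, leaving out both libraries that stand apart moved the complement genes called higher in B6 than in 129 from 4 to 9, and in SWR against 129 the further macrophage genes from 6 to 10 and the perivascular genes from 1 to 3.

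Leaving out each library in turn gave 8 to 9 members called in at least 1 pair, 5 to 7 for B6 against 129, 5 to 6 for SJL against 129, 1 to 3 for SWR against 129, 4 to 5 for SWR against B6, 3 to 4 for SWR against SJL, and 0 for SJL against B6, the sexes and the interaction. Leaving out all libraries of 1 replicate number gave 0 to 11 correlated pairs. With the replicate block the count was 8, and 6, 5, 2, 0, 4 and 4 in the 6 pairs, the same as without it. Deviations of libraries with the same number had a median correlation of -0.01 over 112 pairs, from -0.28 to 0.44, with 21 above 0.1. For libraries of different numbers the median was 0.01 over 336 pairs, from -0.41 to 0.40, with 69 above 0.1. A batch shared by some libraries of the same number was not tested.

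Depth limits Cd163 most, since SWR libraries hold 2 to 8 of its reads. The C1q ratios and the promoter matches have no alternative here.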
